A study of Mus musculus with 30 samples.

Results

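The genes described here are 7 members of the sterol pathway in the newborn mouse hypothalamus: Hmgcs1, Fdft1, Sqle, Lss, Cyp51 and Dhcr7, which encode enzymes of cholesterol synthesis, and Insig1, which encodes a sensor of the sterol level. The members were every probe set that the platform's table assigns to 1 of these 7 symbols, which gave 18 of the 45037 probe sets that are not controls. Of the 18, 15 were above the filter on dim signal (5 for Hmgcs1, 3 for Cyp51, 2 for Fdft1, 2 for Lss and 1 for each of the other genes) and 3 were not (1420014_at of Lss and 1438918_at and 1438919_x_at of Fdft1, with mean scaled signals of 8.53, 3.66 and 3.25). The groups were female C57BL/6J mice injected under the skin on the day of birth with 7.5 µg estradiol benzoate (EB) in peanut oil, or with the oil alone (the vehicle). The whole hypothalamus was taken 1, 3, 6, 12 or 24 h later. Each of the 10 groups had 3 mice, and each of the 30 arrays held the RNA of 1 mouse. The design asks what EB does at each time, and, within each treatment, how the signals differ between times. All mice were female and all had been injected, so the effect of sex or of the injection itself is not analysed here. A later time also means an older pup, and time after injection and age cannot be told apart. The same holds for any time of day or hybridisation batch that went with the time.

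Cells make cholesterol from acetyl-CoA through mevalonate, isoprenoids, squalene and lanosterol. When membranes of the endoplasmic reticulum run low in sterol, the carrier SCAP takes the SREBP transcription factors to the Golgi, where they are cut and released to the nucleus and raise the genes of this pathway together. INSIG proteins hold SCAP back when sterol is plentiful, and Insig1 is itself an SREBP target. The brain makes nearly all of its own cholesterol, because lipoproteins of the blood do not cross the blood-brain barrier, and demand is high while neurites, synapses and myelin form.

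The 250 bases before the annotated start of 4 members are shown because joint control through such sequence is what the pathway is known for. RefSeq on GRCm38.p6 gave a promoter for 5 of the 7 genes, and Dhcr7, with 3 annotated starts, is left unprinted. Sqle and Fdft1 had none in the table. Hmgcs1 is at chr13:119690101-119690350 on the plus strand, Insig1 at chr5:28071162-28071411 on the plus strand, Lss at chr10:76531355-76531604 on the plus strand and Cyp51 at chr5:4104698-4104947 on the minus strand. Capitals mark 3 sets of letters searched on both strands: TCACNCCAC, a form of the sterol regulatory element, CCAAT, the box that NF-Y binds, and GGGCGG, the box that Sp1 binds.
Hmgcs1: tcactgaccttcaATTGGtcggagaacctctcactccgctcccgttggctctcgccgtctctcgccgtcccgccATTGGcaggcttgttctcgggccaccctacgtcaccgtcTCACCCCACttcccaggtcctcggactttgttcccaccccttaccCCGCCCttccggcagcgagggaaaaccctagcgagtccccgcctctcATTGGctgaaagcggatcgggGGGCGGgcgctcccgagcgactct
Insig1: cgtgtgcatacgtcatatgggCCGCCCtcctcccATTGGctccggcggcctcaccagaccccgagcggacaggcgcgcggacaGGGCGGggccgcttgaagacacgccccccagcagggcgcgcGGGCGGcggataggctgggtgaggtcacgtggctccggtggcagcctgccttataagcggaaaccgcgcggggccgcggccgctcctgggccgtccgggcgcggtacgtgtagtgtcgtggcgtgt
Lss: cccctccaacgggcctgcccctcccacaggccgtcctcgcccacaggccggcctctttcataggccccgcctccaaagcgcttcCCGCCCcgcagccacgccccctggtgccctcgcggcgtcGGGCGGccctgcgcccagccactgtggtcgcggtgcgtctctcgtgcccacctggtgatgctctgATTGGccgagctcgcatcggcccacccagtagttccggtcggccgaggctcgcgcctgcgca
Cyp51: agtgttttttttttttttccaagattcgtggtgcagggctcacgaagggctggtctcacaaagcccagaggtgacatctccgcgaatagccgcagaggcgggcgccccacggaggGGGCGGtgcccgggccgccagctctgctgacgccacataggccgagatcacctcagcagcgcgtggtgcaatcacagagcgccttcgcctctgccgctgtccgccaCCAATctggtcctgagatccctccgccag
No matches overlapped each other. TCACNCCAC was found once, in Hmgcs1 from -137 to -129 relative to the start, and 1.05% of the 32851 promoters in the table hold it in the same window. CCAAT was found in all 4 (33.8% of all promoters) and so was GGGCGG (32.7% of all promoters). These are matches of letters and show no binding.

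**Figure D1:**
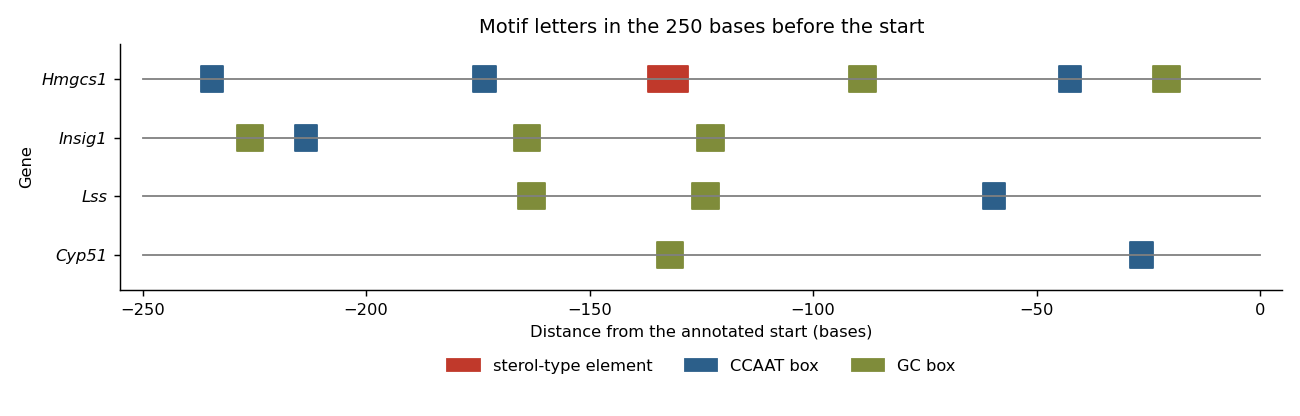
Positions of the 3 motifs in the 250 bases before the annotated starts of Hmgcs1, Insig1, Lss and Cyp51 (x axis, bases from the start, which is at 0; 1 row per gene). Colours mark the sterol-type element TCACNCCAC, CCAAT and GGGCGG on either strand; the first is in Hmgcs1 at -137 and in none of the other 3.

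The values are MAS5 signal intensities, scaled here so that every array has the same median, in arbitrary units. The deposited arrays were not on one scale, with medians from 28.0 to 66.9, and the 12 h arrays of both treatments were the brightest. Without scaling, the median probe set was 0.81 (log2) higher at 12 h than at 1 h with oil and 0.72 higher with EB, so each change over time below is relative to the median of its array. Of 13 markers of the hypothalamus, 12 were on the array and 11 passed the filter, among them Otp, Sim1, Avp and Pmch. Of the 4 telencephalon markers on the array, 3 passed it too, so passing the filter cannot settle the tissue label. Arrays of the EB 24 h group stood apart in 12 markers of the fibroblasts of the leptomeninges: their summed signal was 378 to 4374 in EB 24 h arrays and 8118 to 9746 in oil 24 h arrays, and between 6002 and 13570 in the other groups. The oil 6 h group had 1 array high in the 4 markers of the telencephalon on the array (summed signal up to 1140, against at most 267 in any other group). Summed signals here and below follow the brightest genes of a list. By mean scaled signal these were Stmn2 (7590) and Tubb3 (4690) for neurons and Fabp7 (7750) for astrocytes and radial glia. For the leptomeninges it was Ptgds (5920).

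EB did not raise or lower any of the 15 probe sets by the test at any time. With limma, 0 of 15 passed an adjusted p of 0.05 at each of the 5 times. The number with an unadjusted p under 0.05 was 2 after 1 h, 6 after 3 h, 0 after 6 h, 2 after 12 h and 4 after 24 h. Over all 27022 probe sets tested, the number at that unadjusted threshold was 2332, 3457, 1626, 1774 and 4230 at these times. By adjusted p, 0.00370%, 0.474%, 0%, 0% and 2.77% of all probe sets passed at these times. The effect averaged over the 5 times also passed for 0 of 15, against 0.0740% of all probe sets. At an unadjusted p under 0.05 it was 0 of 15, and 2348 of all 27022. For the brightest probe set of each of the 7 genes, the 95% intervals of this averaged effect lay within -0.17 and 0.16 on the log2 scale. A test of whether the effect differed between times passed for 0 of 15 (adjusted p 0.118 to 0.762), against 0.951% of all probe sets. At an unadjusted p under 0.05 it was 5 of 15, and all probe sets were not counted at that threshold. The unmoderated two-factor test on deposited signals gave 0 in each of these comparisons but 12 h, where it called 1, the dim Hmgcs1 probe set 1441536_at (log2 change -0.73, adjusted p = 0.0199).

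**Figure D2:**
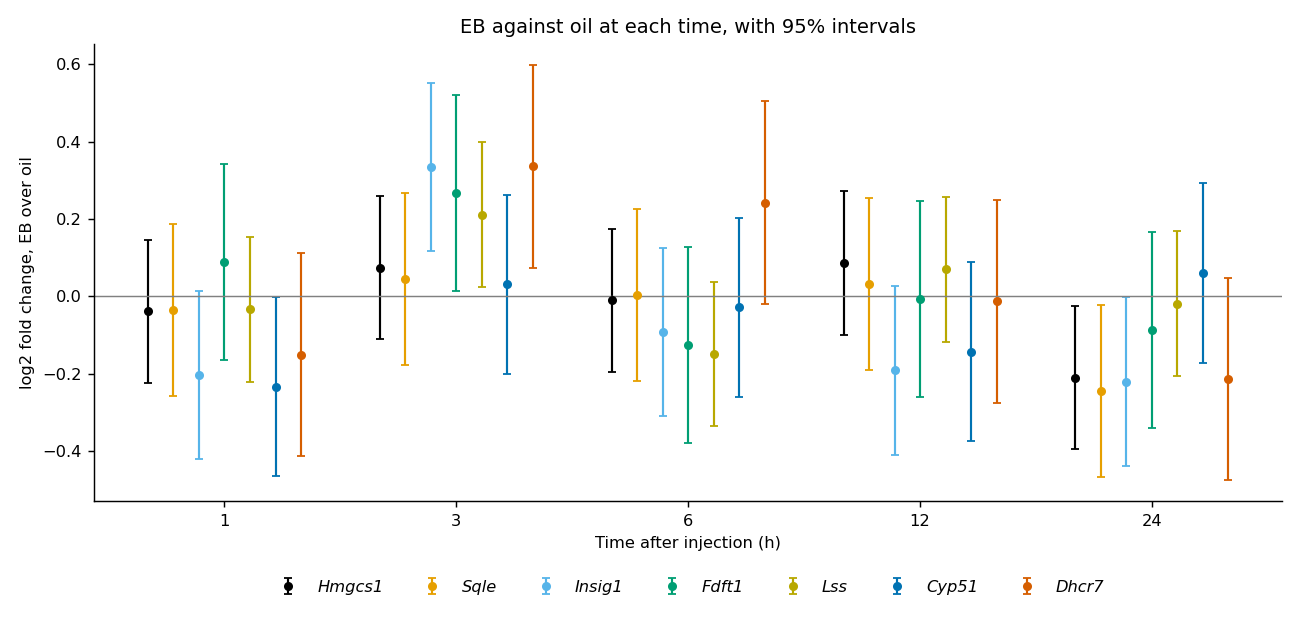
log2 fold change of EB over oil (y axis) at each time after injection (x axis, h) for the brightest probe set of each of the 7 genes, with 95% intervals from the fit over 3 arrays per group. At 3 h all 7 points lie above 0, from 0.03 to 0.34 (3 of 7 on unscaled signals), and at 24 h 6 of 7 lie below it (1 of 7 unscaled), while none passed an adjusted p of 0.05.

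At 3 h the EB arrays had the higher mean for all 7 genes (for 3 of 7 on unscaled signals), with a median log2 difference of 0.21 where the median over all probe sets was 0.05. Insig1 (1454671_at) read 439, 393 and 497 in EB 3 h arrays, against 342, 362 and 347 in oil 3 h arrays. The groups did not overlap, and the log2 difference was 0.33 ± 0.11 (SE, n = 3 each, interval 0.12 to 0.55, adjusted p = 0.156). Dhcr7 (1448619_at), the last reductase of the pathway, read 286, 241 and 345 in EB 3 h arrays, against 226, 255 and 206 in oil 3 h arrays. Here the groups overlapped, and the log2 difference was 0.34 ± 0.13 (SE, n = 3 each, adjusted p = 0.243). Lss (1426913_at), which closes squalene epoxide into lanosterol, read 393, 345 and 412 with EB, against 326, 325 and 341 with oil. Its groups did not overlap, with a log2 difference of 0.21 ± 0.09 (SE, adjusted p = 0.316). Over the 15 probe sets, 2 had every EB 3 h array above every oil 3 h array (8.70% of all probe sets did), and Hmgcs1 1433446_at had them all below.

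The EB 3 h group was also the most spread. The mean centred log2 signal of the 7 genes ran from -0.23 (replicate 2) to 0.23 (replicate 3) there, a range of 0.47, and in the other 9 groups the range was between 0.016 and 0.23. With replicate 2 of that group left out, the log2 difference of Insig1 was 0.42 (adjusted p = 0.0876), and with replicate 3 left out it was 0.25 (adjusted p = 0.535). Without EB 3 h replicate 3, Hmgcs1 was at -0.04, Sqle at -0.07 and Cyp51 at -0.09. On unscaled signals, where the median of all probe sets was -0.20 at 3 h, Hmgcs1, Sqle, Lss and Cyp51 were below 0. With quantile normalization Hmgcs1 (-0.0028), Sqle (-0.03) and Cyp51 (-0.03) were.

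At 24 h the EB arrays had the lower mean for 6 of 7 genes (for 1 of 7 on unscaled signals), with a median log2 difference of -0.21 where the median over all probe sets was -0.01. Sqle (1415993_at), which puts the epoxide on squalene, read 952, 1051 and 1072 in EB 24 h arrays, against 1148, 1325 and 1172 in oil 24 h arrays. Hmgcs1 (1433445_x_at), which makes HMG-CoA at the head of the mevalonate pathway, read 4739, 4728 and 5004 in EB 24 h arrays, against 5618, 5589 and 5520 in oil 24 h arrays. In both genes every EB array was below every oil array. The log2 difference was -0.24 ± 0.11 for Sqle (SE, n = 3 each, adjusted p = 0.26) and -0.21 ± 0.09 for Hmgcs1 (SE, n = 3 each, adjusted p = 0.245). Over the 15 probe sets, 6 had every EB 24 h array below every oil 24 h array, where 14.3% of all probe sets did, and Cyp51 1422533_at had them all above (log2 difference 0.21, adjusted p = 0.365).

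The direction at 24 h also went with the scaling. Unscaled, the median of all probe sets was 0.22 and only Sqle (-0.02) was below 0 among the 7 genes. With quantile normalization Hmgcs1 was at 0.015 and Sqle at -0.19. A fit to the 6 arrays of 24 h alone called 2 Hmgcs1 probe sets lower, 1433444_at (-0.22, adjusted p = 0.0321) and 1433445_x_at (-0.21, adjusted p = 0.0329). The summed signal of neuronal markers was 18250 to 19170 in EB 24 h arrays and 20960 to 22040 in oil 24 h arrays. For astrocyte and radial glia markers it was 10500 to 11040 with EB and 12490 to 13520 with oil, and for endothelial markers 546 to 572 with EB and 581 to 637 with oil. The part of these, and of the leptomeningeal markers, in the values at 24 h was not tested. In bulk tissue, fewer cells of a type and less RNA per cell cannot be told apart.

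**Figure D3:**
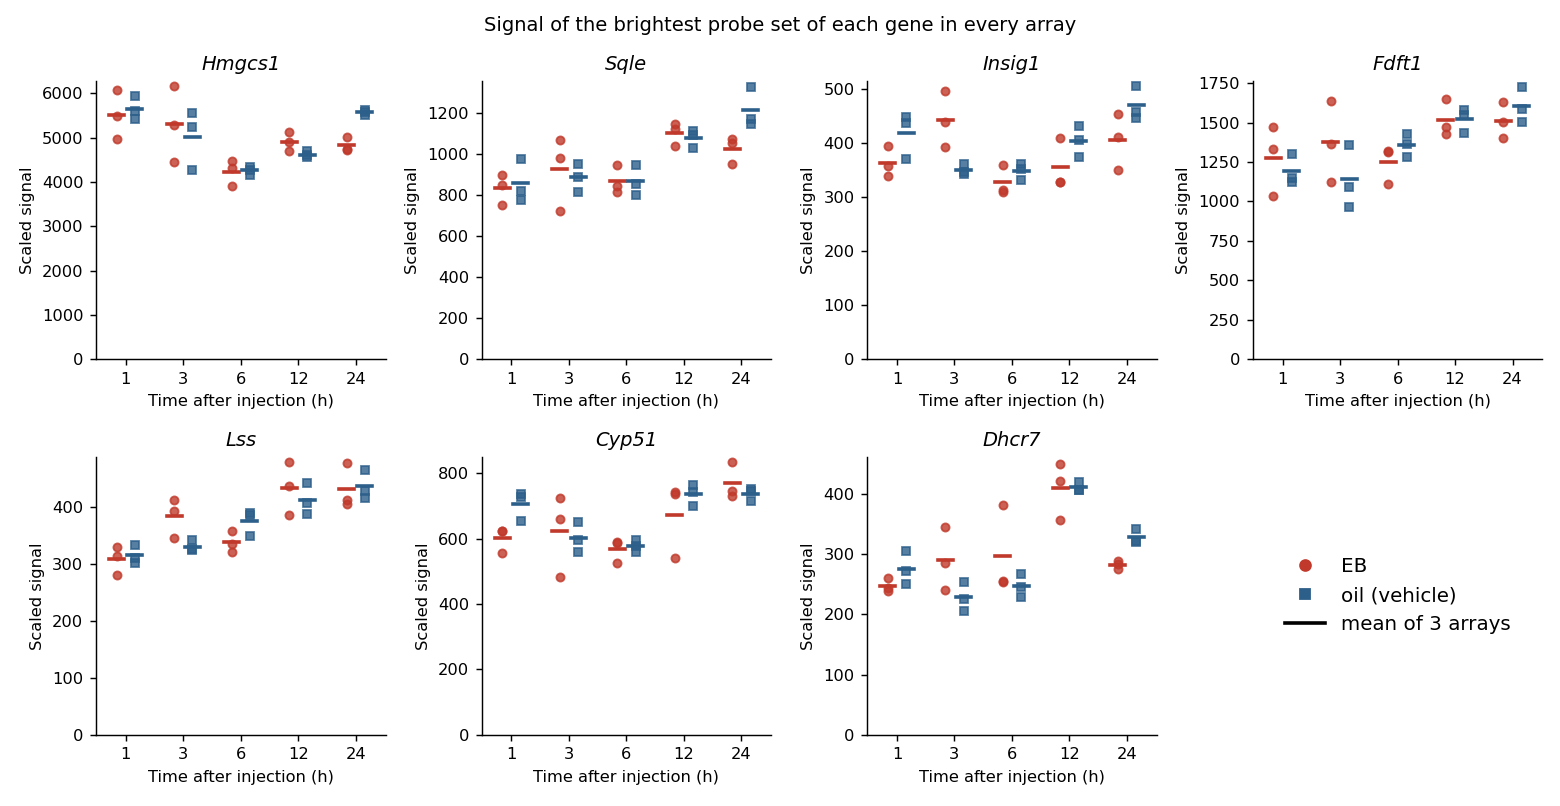
Scaled signal (y axis, arbitrary units, from 0) of the brightest probe set of each of the 7 genes in each of the 30 arrays, by time after injection (x axis, h), with EB left of oil; short lines are means of 3 arrays. Dhcr7 at 12 h reads 357 to 450 with EB and 406 to 421 with oil. Its 12 h means are above those of the other times, but EB 6 h replicate 3, at 381, is within the EB 12 h range. Hmgcs1 at 6 h reads 3913 to 4468 with EB and 4162 to 4342 with oil.

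Most of the probe sets changed over time. In the test over all 5 times, 9 of 15 probe sets passed with EB (adjusted p from 0.000514 for Lss 1426913_at) and 14 of 15 passed with oil (adjusted p from 5.2e-05 for Dhcr7), where 22.8% and 34.1% of all probe sets passed. By the brightest probe set, 6 of 7 genes passed with EB, all but Fdft1 (adjusted p = 0.172), and 7 of 7 passed with oil. The EB count was 5 without EB 6 h replicate 1. No test compared the time courses of the 2 treatments other than the one above on whether the EB effect differed between times, which 0 of 15 passed.

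Dhcr7 had the widest time course. At 1 h it read 261, 243 and 240 with EB and 305, 251 and 273 with oil. At 12 h it read 421, 450 and 357 with EB and 407, 421 and 406 with oil. Every 12 h array was above every 1 h array of the same treatment. The log2 change from 1 h to 12 h was 0.72 ± 0.13 with EB (adjusted p = 0.000341) and 0.58 ± 0.13 with oil (SE, n = 3 per group, adjusted p = 0.00105). At 24 h it read 276, 284 and 288 with EB and 321, 343 and 320 with oil, changes from 1 h of 0.19 and 0.25 that did not pass. The summed neuronal marker signal with EB was 16840 to 19990 at 12 h against 20740 to 23220 at 1 h. With oil it was 17970 to 18600 at 12 h against 20190 to 21380 at 1 h. Oligodendrocyte lineage markers with oil were higher, at 2757 to 2968 at 12 h against 2400 to 2599 at 1 h. So were microglia markers with oil, at 714.1 to 889.9 against 480.2 to 544.5. With EB the 12 h and 1 h ranges of both lists overlapped. The part of these markers in the changes at 12 h was not tested. In the order of the 10 group means of Dhcr7, the 2 groups at 12 h were the highest. They lay apart from the next, oil 24 h (328 ± 12.6, SD, n = 3), but EB 6 h replicate 3, at 381, was within the range of EB 12 h. The ranges of neighbours in that order overlapped in the other 8 of 9 steps.

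By its brightest probe set, Lss was higher at both late times in both treatments, and its second did not pass in any of these comparisons. The EB arrays read 330, 313 and 281 (1 h), 386, 437 and 478 (12 h), and 405, 478 and 412 (24 h). The oil arrays read 310, 334 and 302 (1 h), 388, 407 and 443 (12 h), and 415, 428 and 466 (24 h). No array at 12 or 24 h came down to the 1 h arrays of its treatment. The log2 changes at 12 h were 0.49 with EB and 0.39 with oil (SE 0.09 each, adjusted p = 0.000517 and 0.00187). After 24 h the changes were 0.48 with EB and 0.47 with oil (SE 0.09 each, adjusted p = 0.00101 and 0.00274). The second probe set, 1420013_s_at, had changes at 12 h of 0.18 with EB (adjusted p = 0.366) and -0.08 with oil (adjusted p = 0.648). At 24 h they were 0.23 with EB (adjusted p = 0.262) and 0.18 with oil (adjusted p = 0.439).

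Upstream of Lss, Fdft1, the synthase that joins 2 farnesyl groups into squalene, and Sqle were higher late as well. Sqle had a log2 change at 12 h of 0.40 with EB (adjusted p = 0.0114) and 0.34 with oil (adjusted p = 0.0191), each ± 0.11 (SE). At 24 h it was 0.30 with EB, which did not pass (adjusted p = 0.076), and 0.51 with oil (adjusted p = 0.00533). Fdft1 (1438322_x_at) rose with oil by 0.35 at 12 h (adjusted p = 0.0301) and by 0.43 at 24 h (adjusted p = 0.0325). Its second probe set, 1448130_at, rose with oil by 0.46 and 0.48 at these times, and with EB neither passed. Single arrays decided several of these calls. At 12 h with oil, Sqle did not pass without oil 1 h replicate 2 or 3 or oil 12 h replicate 2 or 3 (adjusted p 0.057 to 0.0993), and Fdft1 1448130_at did not without oil 1 h replicate 2 (adjusted p = 0.0615). At 12 h with EB, the Sqle call ended when EB 1 h replicate 3 or EB 12 h replicate 1 was omitted (adjusted p 0.0521 to 0.0706). Fdft1 1438322_x_at was lost at 12 h without oil 1 h replicate 2 or 3 or oil 12 h replicate 1 or 3 (adjusted p 0.0827 to 0.103), and at 24 h without any array of its 6 but oil 1 h replicate 1 (adjusted p 0.0537 to 0.13). At 24 h 1448130_at was lost without oil 1 h replicate 2 or 3 or oil 24 h replicate 1 or 2 (adjusted p 0.0708 to 0.131).

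Cyp51, the demethylase that acts on lanosterol, gave different answers by probe set. Its brightest, 1450646_at, read 736, 743 and 541 at 12 h with EB and 699, 744 and 764 with oil, and neither change from 1 h passed the test. It was 0.36 ± 0.11 (SE) higher at 24 h than at 1 h with EB (adjusted p = 0.0414), a call that leaving out any of the 6 arrays ended (adjusted p 0.0651 to 0.163). The second, 1422533_at, was higher at 12 h by 0.42 with EB (adjusted p = 0.0101) and by 0.52 with oil (adjusted p = 0.000745). It was higher at 24 h by 0.58 with EB (adjusted p = 0.00111) and by 0.35 with oil (adjusted p = 0.0484). That last call was lost with any of its 6 arrays left out (adjusted p 0.084 to 0.158) and with quantile or trimmed-mean scaling, and the EB call at 12 h was lost without EB 12 h replicate 2 (adjusted p = 0.0629). The third, 1422534_at, was dim at a mean scaled signal of 55.1 and did not pass the time test with EB (adjusted p = 0.961) or with oil (adjusted p = 0.135).

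Hmgcs1, the first enzyme among the 7, was lower at 6 h than at 1 h. By the brightest probe set, 4 of 7 genes were below 1 h at 6 h in each treatment, and 1, Hmgcs1, passed. Its brightest probe set read 5494, 6076 and 4973 with EB at 1 h, and 3913, 4468 and 4321 at 6 h. With oil it read 5933, 5423 and 5595 at 1 h, and 4342, 4162 and 4272 at 6 h. Every 6 h array was below every 1 h array of its treatment, with a log2 change of -0.38 ± 0.09 with EB (adjusted p = 0.0118) and -0.41 ± 0.09 with oil (SE, n = 3 per group, adjusted p = 0.00308). The EB call was lost when EB 1 h replicate 2 or EB 6 h replicate 1 was left out (adjusted p 0.0821 to 0.0865). It was also lost with quantile normalization, with no scaling and by the methods' test (adjusted p up to 0.471). At 12 h the change was -0.16 with EB, which did not pass (adjusted p = 0.23). With oil it was -0.29, which did (adjusted p = 0.0157), though not when oil 1 h replicate 1 was left out (adjusted p = 0.069). After quantile normalization the 12 h change with oil was -0.08 and did not pass. At 24 h with oil the arrays read 5618, 5589 and 5520, -0.02 from 1 h. The lowest group means of the 10 were EB 6 h (4234 ± 288) and oil 6 h (4259 ± 90.6, SD, n = 3 each), which overlapped, and the highest was oil 1 h (5650 ± 260). The summed signals of the neuron list and of the astrocyte and radial glia list, which follow their brightest genes, were also lower at 6 h than at 1 h. The summed neuronal signal was 16900 to 20700 at 6 h against 20740 to 23220 at 1 h with EB, and 17220 to 18600 at 6 h against 20190 to 21380 at 1 h with oil. That of astrocytes and radial glia was 9997 to 12030 at 6 h against 13370 to 13710 at 1 h with EB, and 10220 to 10910 at 6 h against 11980 to 12970 at 1 h with oil. None of these ranges overlapped, and with oil the neuronal sum at 24 h was 20960 to 22040. Other lists did not all fall. The microglial sum with oil was higher, at 622.6 to 822.7 at 6 h against 480.2 to 544.5 at 1 h. With EB it was 595.7 to 694.1 at 6 h against 674.7 to 843.4 at 1 h, with overlap. The part of these markers in the Hmgcs1 values was not tested.

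The Hmgcs1 probe sets did not all move alike. With oil at 6 h, 4 of 5 fell (-0.39 to -0.42), and at 12 h the same 4 fell (-0.29 to -0.59, the last for 1433446_at with adjusted p = 0.000194). The fifth, 1441536_at, with a mean scaled signal of 71.8 against 1020 to 4990 for the others, rose with oil by 0.57 at 6 h, 0.94 at 12 h and 0.68 at 24 h (adjusted p = 0.0476, 0.000571 and 0.0343). Its calls at 6 and 24 h were lost with 5 and 4 of their 6 arrays left out in turn, all but oil 6 h replicate 3 at 6 h, and all but oil 1 h replicate 1 and oil 24 h replicate 2 at 24 h. It read 57.8, 78.8 and 57.9 at 12 h with EB and 93.8, 101 and 98.7 with oil. At 12 h the fall with oil turned to a rise on unscaled signals (0.43 for 1433445_x_at), and with EB it was 0.07 after quantile normalization. The fall at 6 h with oil kept its sign in every setting run.

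Insig1 had no called change from 1 h at any time in either treatment, though its time test passed with EB (adjusted p = 0.021) and with oil (adjusted p = 0.00817). With EB it read 357, 394 and 338 at 1 h, 439, 393 and 497 at 3 h, and 310, 360 and 312 at 6 h. With oil it read 448, 371 and 437 at 1 h, 342, 362 and 347 at 3 h, and 352, 331 and 362 at 6 h. The oil arrays of 3 and 6 h were all below those of 1 h (log2 changes -0.25 and -0.26, adjusted p = 0.4 and 0.0955), and the EB arrays of 6 h overlapped those of 1 h (-0.15, adjusted p = 0.425). The oil 24 h group had its highest mean, 470 ± 31.2 (SD, n = 3), and no neighbours in the order of the 10 group means were apart.

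**Figure D4:**
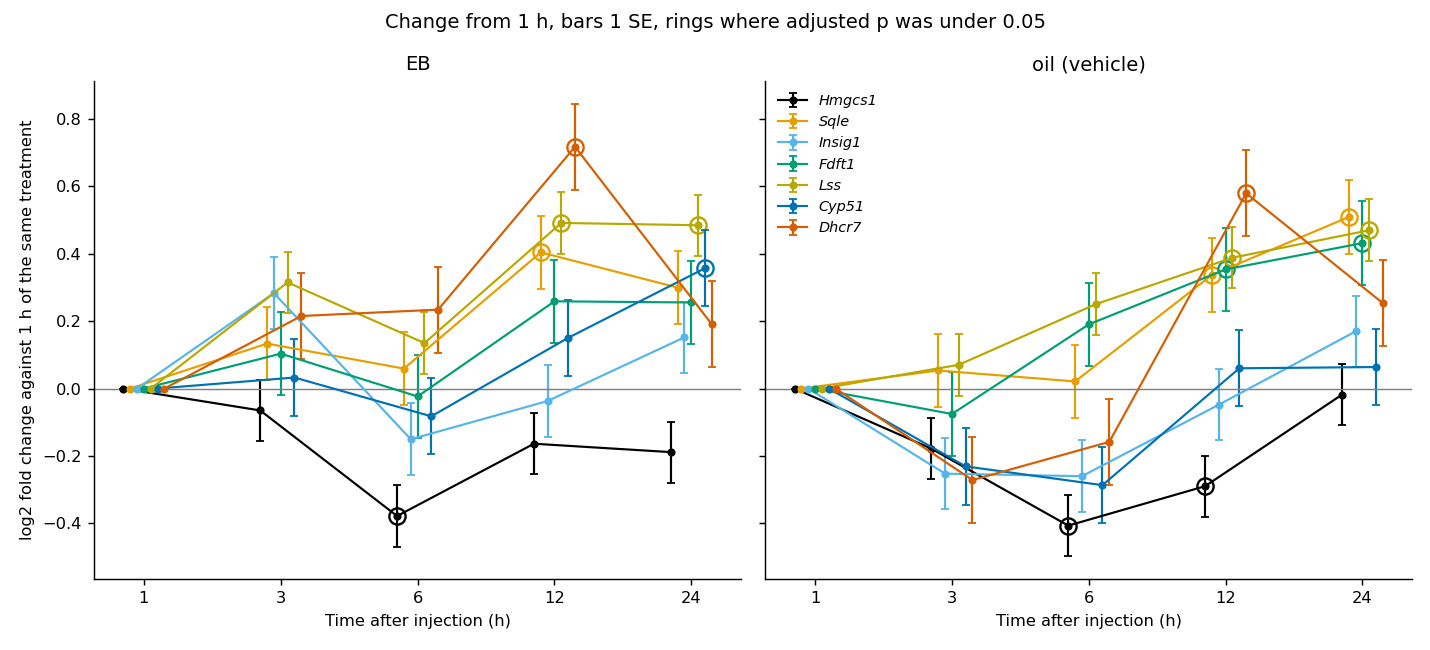
log2 fold change from 1 h of the same treatment (y axis) by time after injection (x axis, h) for the brightest probe set of each of the 7 genes, EB left and oil right, with bars of 1 SE; rings mark an adjusted p under 0.05. Dhcr7 peaks at 12 h (0.72 with EB, 0.58 with oil) and Hmgcs1 is lowest at 6 h (-0.38 with EB, -0.41 with oil).

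Counted over the 15 probe sets, 0 passed at 3 h against 1 h with EB and 0 with oil, where 0.137% and 0% of all probe sets passed. An unadjusted p under 0.05 was reached by 3 with EB and 6 with oil. Of all 27022 probe sets, 3057 with EB and 2868 with oil reached it. At 6 h with EB, 0 were higher and 2 lower, where 2.33% and 3.99% of all probe sets were. At 6 h with oil, 1 was higher and 4 lower, where 7.11% and 8.31% were. At 12 h with EB, 4 were higher and 0 lower, where 8.69% and 7.49% were. At 12 h with oil, 7 were higher and 4 lower, where 18.7% and 12.0% were. At 24 h with EB, 3 were higher and 0 lower, where 4.71% and 5.51% were. At 24 h with oil, 6 were higher and 0 lower, where 4.97% and 1.80% were.

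These counts moved with single arrays. At 24 h with oil, 2 were higher without oil 1 h replicate 2, oil 1 h replicate 3 or oil 24 h replicate 1, and 3 without oil 24 h replicate 2 or 3. At 12 h with oil, 4 were higher without oil 1 h replicate 2, and the lower ones were 1 without oil 1 h replicate 1 and 2 without oil 12 h replicate 3. At 6 h with oil, the 1 higher was lost without any of oil 1 h replicates 1, 2 and 3 or oil 6 h replicates 1 and 2. At 6 h with EB, 1 was left as lower when EB 1 h replicate 1 was omitted, and 0 when replicate 2 of that group or EB 6 h replicate 1 was. Of the 31 calls over time among the members, 13 kept their call in every fit without 1 array and every setting that scaled the arrays. These were Dhcr7 at 12 h and Lss 1426913_at at 12 and 24 h in both treatments, Sqle at 24 h with oil, Cyp51 1422533_at at 24 h with EB and at 12 h with oil, and 4 of Hmgcs1 with oil, those of 1433444_at and 1433445_x_at at 6 h and of 1433446_at and 1441536_at at 12 h. On unscaled signals 15 were higher at 12 h with EB and 14 with oil, and at 24 h 1 with EB and 0 with oil. With quantile normalization the lower ones were 0 at 6 h with EB, 3 at 6 h with oil and 1 at 12 h with oil.

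Because scaling mattered, each gene was also set against Hmgcs1 inside each array. Multiplying an array by a factor leaves this log2 difference as it is, and quantile normalization does not. This comparison was added after the data were seen. At 12 h the mean difference was higher than at 1 h for all 6 other genes in both treatments, except that after quantile normalization it was lower for Insig1 (-0.17 with EB, -0.07 with oil). For Dhcr7 it read -3.48, -3.51 and -3.78 at 12 h with EB, against -4.40, -4.64 and -4.37 at 1 h, a change of 0.88. With oil it read -3.53, -3.44 and -3.50 at 12 h, against -4.28, -4.44 and -4.36 at 1 h, a change of 0.87. The 12 h arrays did not overlap the 1 h arrays in either. For Lss the change at 12 h was 0.66 with EB and 0.68 with oil, for Sqle 0.57 and 0.63, and for Fdft1 0.42 and 0.64. Cyp51 (0.31 with EB, 0.35 with oil) and Insig1 (0.13 with EB, 0.24 with oil) changed least, and with EB their 12 h and 1 h arrays overlapped. After quantile normalization the change was 0.57 with EB and 0.56 with oil for Dhcr7, 0.36 and 0.37 for Lss, 0.30 and 0.34 for Sqle and 0.18 and 0.38 for Fdft1, all still without overlap. For Cyp51 it was 0.022 with EB and 0.045 with oil, with overlap. These differences are given as values with no test, and they show unequal change of the genes, not which of them moved.

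**Figure D5:**
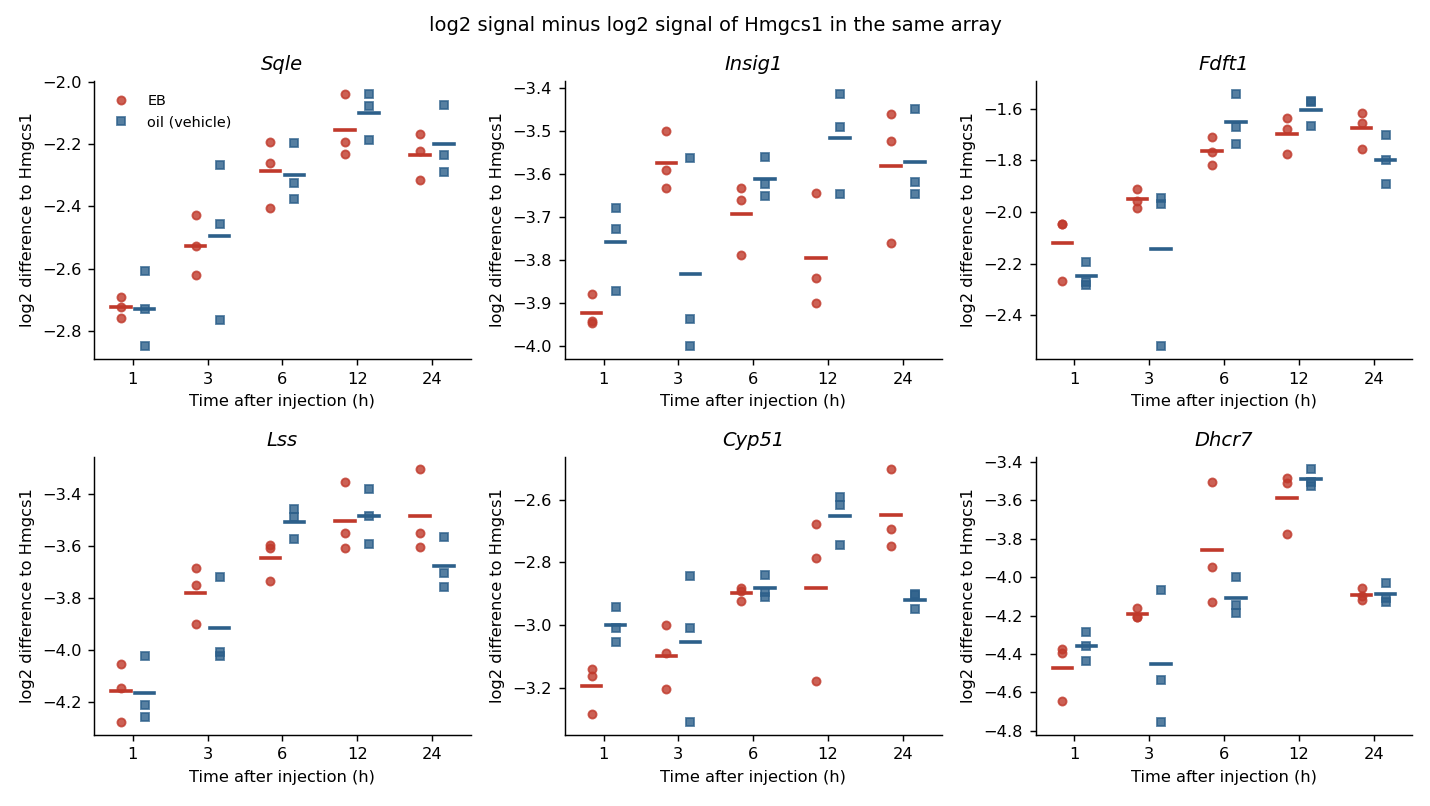
log2 signal of each of 6 genes minus that of Hmgcs1 in the same array (y axis, brightest probe sets) by time after injection (x axis, h), EB left of oil, with short lines for means of 3 arrays. For Dhcr7, all 12 h arrays lie above all 1 h arrays in both treatments, with changes of 0.88 with EB and 0.87 with oil (0.57 and 0.56 after quantile normalization).

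The rest of the pathway was read from 16 other enzymes, of which 13 were measured, each by its brightest probe set, and the others are not analysed here. EB against oil called 0 of the 13 higher and 0 lower at each time. At 12 h against 1 h, 1 of 13 was higher with EB and 6 of 13 with oil, where 8.69% and 18.7% of all probe sets were. None of the 13 was lower, where 7.49% of all probe sets were with EB and 12.0% with oil. The median change was 0.22 with EB and 0.07 with oil, against 0.05 and 0.09 over all probe sets. Mvd, the decarboxylase that makes isopentenyl diphosphate, was 0.90 ± 0.15 (SE) higher with EB (adjusted p = 0.000211) and 0.85 ± 0.15 higher with oil (adjusted p = 0.000129). Its mean scaled signal was 171 ± 19.1 at 1 h and 319 ± 34.0 at 12 h with EB, and 173 ± 25.6 at 1 h and 311 ± 33.9 at 12 h with oil (SD, n = 3 each). The others higher at 12 h with oil were Hsd17b7 (0.72), Ebp (0.55), Idi1 (0.46), Pmvk (0.35) and Msmo1 (0.33), which act between mevalonate and the sterol nucleus or on it. The calls of Idi1 and Msmo1 were lost when any of several single arrays was left out (oil 1 h replicates 2 and 3 and oil 12 h replicates 2 and 3 for both, and oil 12 h replicate 1 for Idi1), and that of Pmvk without oil 1 h replicate 1 (adjusted p = 0.0654).

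At 24 h against 1 h, 4.71% of all probe sets were higher and 5.51% lower with EB, and 4.97% and 1.80% with oil. Of the 13, 3 were higher with EB (Mvd, Idi1 and Msmo1) and 3 with oil (Mvd, Hsd17b7 and Msmo1), and none was lower. Of these 6 calls, those of Mvd with EB and Msmo1 with oil held with every array left out. Mvd was also higher at 6 h, by 0.51 with EB (adjusted p = 0.0454) and 0.61 with oil (adjusted p = 0.00787), and Nsdhl was lower at 6 h with oil (-0.44, adjusted p = 0.035). The EB call of Mvd and that of Nsdhl ended when any of the 6 arrays was left out.

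Of 15 genes of sterol sensing, uptake and transport, 12 were measured, and the others are not analysed here. Srebf2, which encodes the SREBP that drives cholesterol synthesis, was higher at 12 h than at 1 h by 0.49 ± 0.14 with EB (adjusted p = 0.0171) and by 0.53 ± 0.14 with oil (SE, adjusted p = 0.00533). The EB call was lost with any 1 of 4 arrays left out, EB 1 h replicates 1 and 3 and EB 12 h replicates 1 and 2 (adjusted p 0.0528 to 0.0794). Lrp8, a receptor for apolipoprotein E and reelin, was the 1 gene of the 12 called between the treatments, at 24 h, where 2.77% of all probe sets were. It averaged 618 ± 61.5 in EB 24 h arrays and 883 ± 52.0 in oil 24 h arrays (SD, n = 3 each) (adjusted p = 0.000734), a log2 difference of -0.52 ± 0.08 (SE). On unscaled signals the difference was -0.29 and did not pass (adjusted p = 0.296). At 12 h against 1 h Lrp8 was lower in both treatments after scaling (-0.37 with EB, -0.35 with oil), and on unscaled signals it was higher in both. Insig2 (0.31) and Npc2 (0.25) were also higher at 12 h with oil, calls that leaving out 1 of several arrays ended (oil 1 h replicates 1 and 3 and oil 12 h replicate 3 for both, oil 12 h replicate 2 for Insig2, and oil 1 h replicate 2 and oil 12 h replicate 1 for Npc2).

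Of 7 genes of LXR signalling and sterol efflux, 5 were measured. Abcg4, a sterol exporter of the brain, and Apoe, its main lipid carrier, both rose over time. At 12 h against 1 h Abcg4 was higher by 0.54 ± 0.10 with EB (adjusted p = 0.000484) and by 0.96 ± 0.10 with oil (SE, adjusted p = 6.53e-08). Apoe was higher by 0.74 ± 0.11 with EB (adjusted p = 6.58e-05) and by 0.83 ± 0.11 with oil (SE, adjusted p = 3.88e-06). These 4 calls held in every setting run. Abca1 was lower at 24 h with EB (-0.56, adjusted p = 0.000734). Abcg4 was also higher with EB at 3 h, at 300 ± 27.1 with EB against 214 ± 19.7 with oil (SD, n = 3 each), a log2 difference of 0.49 ± 0.10 (SE, adjusted p = 0.0178). It did not pass without oil 3 h replicate 2 or 3 or EB 3 h replicate 3 (adjusted p 0.0694 to 0.161), on unscaled signals (0.24, adjusted p = 0.456), with array weights (adjusted p = 0.0506), in the fit to the 6 arrays of 3 h (adjusted p = 0.316) or by the methods' test (0.24, adjusted p = 0.754). Apoe was higher with EB averaged over the 5 times, by 0.27 ± 0.05 (SE, adjusted p = 0.0326). That call was lost in 11 of the 30 fits without 1 array (adjusted p 0.0509 to 0.0707), namely without oil 1 h replicates 1, 2 or 3, EB 1 h replicate 3, oil 3 h replicate 3, EB 3 h replicates 2 or 3, EB 6 h replicate 1, oil 12 h replicate 1, oil 24 h replicate 2 or EB 24 h replicate 2. It was also lost on unscaled signals (adjusted p = 0.686), by the methods' test (0.646), with quantile (0.0967) or trimmed-mean (0.0637) scaling, with no filter (0.0657) and with no variance trend (0.105). Of 10 genes of fatty acid synthesis, all measured, EB against oil called 0 at each time. At 12 h against 1 h, 8.69% of all probe sets were higher and 7.49% lower with EB, and 18.7% and 12.0% with oil. Of the 10, 3 were higher and 1 lower with EB (Fads1, Fads2 and Lpin1, and Scd2). With oil 2 were higher and 1 lower (Elovl6 and Lpin1, and Scd2). Elovl6, an elongase of fatty acids, was higher by 0.76 ± 0.14 with oil (SE, adjusted p = 0.000122). Scd2, the desaturase of stearate in the brain, was lower by the scaled signals (-0.21 with EB, -0.33 with oil) and higher by the unscaled ones. At 6 h against 1 h, 2.33% of all probe sets were higher and 3.99% lower with EB, and 7.11% and 8.31% with oil. Of the 10, 0 were higher and 2 lower with EB (Scd1 and Scd2). With oil 1 was higher and 4 lower (Lpin1, and Acly, Scd1, Scd2 and Acss2). None of these EB calls held with each of its 6 arrays left out in turn (adjusted p up to 0.205), nor did the oil calls of Lpin1 and Acly (up to 0.194).

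The 7 genes varied together from mouse to mouse, after the mean of each group was taken out. All 21 pairs of brightest probe sets had a positive Pearson correlation over the 30 arrays (median 0.53, from 0.22 for Lss and Cyp51 to 0.75 for Sqle and Cyp51). Without EB 3 h replicates 2 and 3, the arrays farthest from the median, 19 of 21 were positive and the median was 0.33. The arrays share their scaling, and such correlations carry no test here. Without centring, Hmgcs1 stood apart: its correlation was -0.02 with Lss and 0.02 with Dhcr7, where Sqle had 0.77 with Lss and 0.74 with Dhcr7.

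The gene most like the mean of the 7 over the 30 arrays, of 12381 ranked, was Msmo1, the sterol methyl oxidase that acts downstream of Cyp51 (r = 0.83, Spearman's rho = 0.82). Of the 40 measured genes of the pathway lists, 15 were among the top 500, which hold 4.04% of the genes ranked. Outside the lists the most alike were Prmt2 (r = 0.82), Rusc1 (0.81), 2610001J05Rik (0.80), Kcnk10 (0.79) and Dmtn (0.79), with rho between 0.77 and 0.85. After centring within groups they were Snx16 (r = 0.89), Ralyl (0.86), Kifap3 (0.86), Prmt2 (0.85) and G3bp2 (0.85), with rho between 0.75 and 0.87, and 9 of the 40 pathway genes were in the top 500. Msmo1 was then at rank 40 (r = 0.77) and Insig2, the sister gene of Insig1, near the bottom at rank 12363 (r = -0.65). Without EB 3 h replicates 2 and 3 the centred r of Snx16 was 0.81, of Msmo1 0.82 and of Insig2 -0.39.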

How the data were processed

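Total RNA of the whole hypothalamus of single mice was hybridised to Affymetrix mouse arrays, 30 in all. The authors deposited MAS5 signal intensity per probe set on a linear scale (the software version is not given in the sources used here), and their arrays' medians differed. Signals were multiplied so that all arrays had 1 median, values under 1 were set to 1, log2 was taken, 64 control probe sets were left out and the lowest 40% by mean log2 signal (under about 21.9) was dropped, which left 27022. limma 3.58.1 in R 4.3.3 fitted 10 groups with a trended eBayes, and Benjamini-Hochberg adjustment ran over all probe sets kept. Precision is limited by 3 arrays a group. The methods' two-factor test on deposited signals was an alternative, as were other scalings, filters, an offset, array weights and leaving out each array.

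The members and lists were chosen with earlier results of these data known. Named are all members, list genes that passed and the 5 genes outside the lists most like the members. Symbols come from the platform's annotation (34945 probe sets with 1 symbol, 932 with several, 9160 with none). A gene of several probe sets is given by its brightest unless another is named. The fit was tested on simulated data.

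Groups shared replicate numbers, and of 15 pairs of EB and oil arrays with the same number at the same time, 0 had deviations from the group means correlated above 0.1 (-0.13 to 0.088), so the numbers were not taken to pair the mice. No 2 arrays held identical values (0 pairs). Columns that could not be tied to a sample numbered 0.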

Additional observations from a re-analysis of the deposited data

How the results depend on the processing

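The count of member probe sets called for EB against oil was 0 under every alternative run at 1, 3 and 6 h, for the average and for the difference between times. It was 1 at 12 h with the methods' two-factor test on deposited signals and 2 at 24 h in the fit to that time's 6 arrays. Leaving out 1 array gave 0 to 0 in all of these. For change over time with EB, the main count of 9 was 15 with no scaling and 15 with the methods' two-factor test, and 5 to 12 without 1 array. With oil, 14 became 11 to 15 over all settings and 12 to 15 without 1 array. Over all probe sets, change over time with EB passed for 6170 (24259 with no scaling) and change over time with oil for 9209 (25604 with no scaling). With the replicate number as a block, the counts were 9 with EB and 14 with oil, the same as without it, and 0 for EB against oil. That block ended no call of a member except that of Cyp51 1422533_at at 24 h with oil. Among list genes it ended those of Mvd at 6 h, Scd1 at 6 and 24 h, and Fads2 and Scd2 at 12 h with EB, and of Npc2 at 12 h with oil.

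Signs turned at 12 h against 1 h where arrays were not scaled (in brackets, the log2 change with no scaling and then by the methods' test). With EB these were Hmgcs1 1433443_a_at (0.51, 0.52), 1433444_at (0.54, 0.54), 1433445_x_at (0.51, 0.51), 1433446_at (0.57, 0.58) and 1441536_at (0.61, 0.63) and Insig1 (0.63, 0.65). With oil they were Hmgcs1 1433443_a_at (0.40, 0.40), 1433444_at (0.39, 0.39), 1433445_x_at (0.43, 0.42) and 1433446_at (0.13, 0.14), Lss 1420013_s_at (0.63, 0.63) and Insig1 (0.67, 0.67). Lrp8 turned with EB (0.30, 0.32) and with oil (0.365, 0.359), and Scd2 with EB (0.46, 0.46, and 0.0495 with quantile normalization) and with oil (0.38, 0.38). Both settings keep the brighter deposited 12 h arrays as they are. Of 31 member calls over time, 7 held under every alternative. The mean of a gene's probe sets in place of its brightest gave a median EB effect over the genes of 0.19 at 3 h and -0.17 at 24 h. Hmgcs1 1441536_at and Cyp51 1422534_at had mean scaled signals of 71.8 and 55.1, above the filter at about 21.9. Their SE for a difference between 2 groups was 0.20 and 0.19. The widest SE among the brightest probe sets was 0.13.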
